A study of Mus musculus with 6 samples.

Results

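The surface and adhesion markers of skeletal muscle satellite cells (SCs) are the subject here: Vcam1, Ncam1, Itga7, Itgb1, Sdc3, Sdc4, Cdh15, Cd34, Cxcr4 and Calcr. They were chosen by name as proteins on the SC surface, and all 10 were found among the 55376 genes of the deposited tables. The study used RNA immunoprecipitation sequencing (RIP-seq) on freshly isolated SCs to ask which transcripts associate with the RNA-binding protein CPEB1. RIP-seq sequences the RNA that an antibody pulls down from lysed cells together with its protein. There were 6 libraries from SCs of C57BL/6 mice aged 3 months: 2 with an anti-CPEB1 antibody (CPEB1 IP), 2 with an anti-IgG antibody as the control for RNA that sticks without CPEB1 (IgG), and 2 of input RNA with no antibody. The mice carried no named transgene or deletion, and the cells were sorted by flow cytometry as CD31-, CD45-, Sca1- and Vcam1+. Vcam1 protein was thus part of the gate, and its transcript level in these cells is not independent of the sort. The libraries of a group came from 2 independent experiments by the study's account, but no label ties them to separate mice, so the p-values measure the spread between these libraries.

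SCs lie between the muscle fibre and the basal lamina, and the proteins described here hold them there or sense the surroundings. Itga7 and Itgb1 form the laminin receptor integrin alpha7 beta1, Cdh15 (M-cadherin) joins the SC to the fibre, and the syndecans Sdc3 and Sdc4 carry heparan sulfate chains that bind growth factors. CPEB1 binds cytoplasmic polyadenylation elements (CPEs), short uridine-rich motifs in the 3′ UTR, and controls the poly(A) tail and translation of the mRNAs that hold them.

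In the mm10 build used by the authors, the immunoglobulin superfamily genes lie at chr3:116109949-116129688 on the minus strand (Vcam1, ENSMUSG00000027962.14) and chr9:49502136-49798925 on the minus strand (Ncam1, ENSMUSG00000039542.16). The integrin genes lie at chr10:128933818-128958282 on the plus strand (Itga7, ENSMUSG00000025348.9) and chr8:128685654-128733200 on the plus strand (Itgb1, ENSMUSG00000025809.15). The syndecan genes lie at chr4:130792537-130826319 on the plus strand (Sdc3, ENSMUSG00000025743.14) and chr2:164424247-164443887 on the minus strand (Sdc4, ENSMUSG00000017009.3). Cdh15 (ENSMUSG00000031962.6) lies at chr8:122847966-122867397 on the plus strand, and Cd34 (ENSMUSG00000016494.9) at chr1:194938819-194961279 on the plus strand. The receptor genes lie at chr1:128588199-128592293 on the minus strand (Cxcr4, ENSMUSG00000045382.6) and chr6:3685680-3764714 on the minus strand (Calcr, ENSMUSG00000023964.15).

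CPEs were searched as the 9 motifs of the study's list on the sense strand of every annotated 3′ UTR (GENCODE M21, mm10), and TTTTAT and TTTTAAT are called canonical here. A 3′ UTR with at least 1 CPE was annotated for 7 of the 10 genes, against 74.4% of the 10832 genes tested for CPEB1 IP against IgG that had an annotated 3′ UTR. The 7 genes are shown by their canonical CPE nearest the 3′ end of a transcript, as 30 bases in DNA letters from 5′ to 3′ on the strand of the gene, with the motif in capitals. Whether CPEB1 binds or acts at these sites was not measured. The windows show the bases around each CPE, and each lies in a 3′ UTR of the gene named:
Vcam1, chr3:116109991-116110020, minus strand: tggtcagactacTTTTATcaaaatcggcaa
Itgb1, chr8:128732927-128732956, plus strand: gggggttagactTTTTATcattaccttttc
Cd34, chr1:194961159-194961188, plus strand: aggggtcctgaTTTTAATgatggctaggaa
Calcr, chr6:3685696-3685725, minus strand: atattggcatatTTTTATaaagaaatacat
Sdc4, chr2:164425120-164425149, minus strand: tttttttttttTTTTAATgctccgtgtcct
Ncam1, chr9:49502654-49502683, minus strand: ccccccctattcTTTTATgtgaagaaataa
Cxcr4, chr1:128588713-128588742, minus strand: acagttttttttTTTTATtgactgttggga

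The genes differed in how many CPEs they held and in where these lay. The main Vcam1 transcript had 7 CPEs in a 3′ UTR of 928 bases, all of them TTTTAT, and the first started at base 433 after the stop codon and the last 54 bases before the 3′ end. A shorter annotated Vcam1 transcript that ends elsewhere held 1 further CPE, TTTTAAGT. Itgb1 had 8 motif matches at 7 positions, since TTTTAAT and TTTTAATT start at the same base, and 5 of the 8 were canonical. Sdc4 and Ncam1 had 6 CPEs each, Cd34 and Calcr 5 each, and Cxcr4 2. The Calcr CPE printed above lies in a transcript with a 3′ UTR of 1715 bases, and not in the longest transcript, whose 3′ UTR of 1662 bases held the other 4. In Sdc4 the last CPE lay 885 bases before the 3′ end, and in Cxcr4 it lay 526 bases before it. Ncam1 held its CPEs only in its long 3′ UTRs of 3295 and 3307 bases, and none was found in the 3 shorter ones of 228 to 678 bases. No CPE was found in Itga7, Sdc3 or Cdh15. Cdh15 and Itga7 have short 3′ UTRs, of 374 bases in Cdh15 and at most 598 bases in Itga7, and 54.5% and 42.4% of the genes in the same decile of 3′ UTR length had none either. Sdc3 has a 3′ UTR of 3510 bases, and only 2.77% of the 1083 genes in its decile of 3′ UTR length held no CPE.

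**Figure D1:**
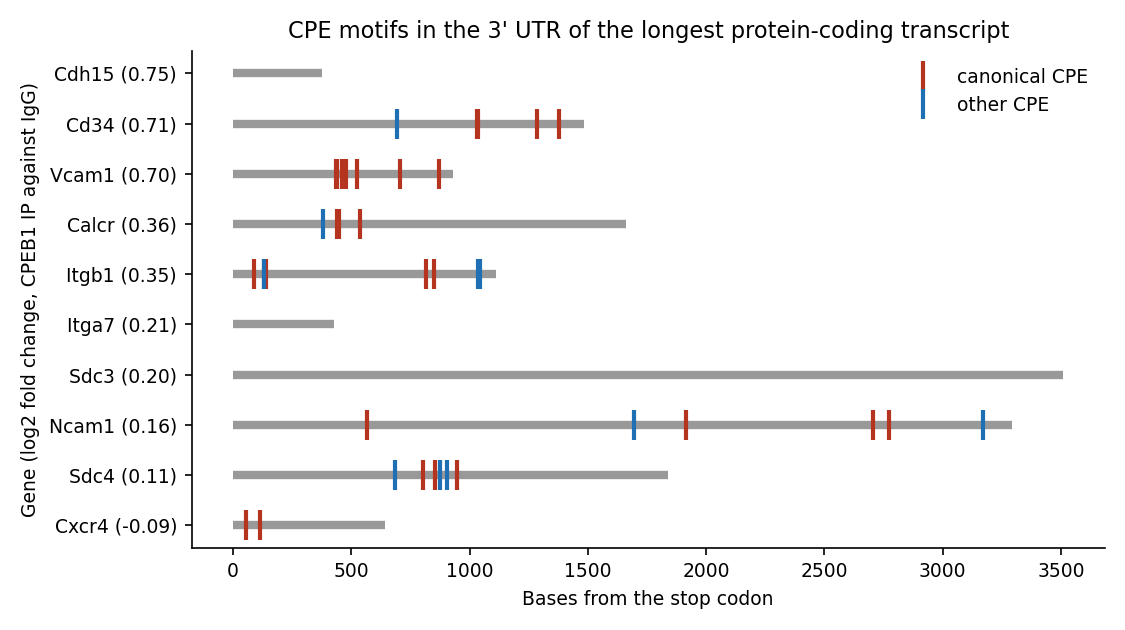
CPE motifs in the 3′ UTR of the longest protein-coding transcript of each gene, with bases from the stop codon on the x axis and genes ordered by their log2 fold change in CPEB1 IP against IgG, given beside each name. Grey bars are 3′ UTRs and ticks are CPEs (red canonical, blue other, overlapping where motifs share bases). Cdh15 (log2 fold change 0.75) and Sdc3 with the longest bar (3510 bases) have no tick.

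The libraries held 1284716 to 4941653 reads on genes, fewest in IgG and most in a CPEB1 IP library. The authors' FPKM (fragments scaled by exon length and by the mapped fragments of the library) divides by a library total of which 39.1% to 39.5% fell on genes in IgG, 69.5% to 69.9% in CPEB1 IP and 71.1% to 79.8% in input. At 6072 protein-coding genes without a count in input, the median FPKM was 0.15 and 0.14 in the IgG libraries and 0 in both CPEB1 IP libraries. Of the genes whose products the sort selected against, Pecam1 (CD31) had 1.99 and 1.47 FPKM in input, Ptprc (CD45) 0 and 0.0132 FPKM, and Ly6a (Sca1) 5.59 and 4.4 FPKM. The SC markers Pax7 (39.8 and 46.0 FPKM), Myod1 (404 and 389 FPKM) and Des (297 and 318 FPKM) were present in input. The summed FPKM of 7 endothelial markers was 10.3 to 10.5 in input, 11.2 to 13.6 in IgG and 25.2 to 27.7 in CPEB1 IP, and that of 7 markers of fibro-adipogenic progenitors was 333 to 380, 96.6 to 103 and 223 to 241, respectively. Most of the latter sum in input came from Dpt (157 and 200 FPKM) and Col3a1 (137 and 145 FPKM), while Pdgfra had 0.087 and 0.048 FPKM. Dcn and Ly6a were higher in CPEB1 IP than in input, Dcn with 33.1 and 32.4 FPKM against 8.86 and 10.3 FPKM. The summed FPKM of 5 red blood cell genes was 5.41 to 10 in input, 39.8 to 41.3 in IgG and 64.3 to 82.5 in CPEB1 IP. No marker of these lists was at 0 in both libraries of a group.

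Levels of the surface markers in input spanned from 3.52 to 1606 FPKM as means of 2 libraries. Sdc4 stood far above the others, with 1454 and 1757 FPKM, and it ranked 6 among all 55376 genes. The other syndecan, Sdc3, was at the opposite end with 3.01 and 4.02 FPKM. Cdh15 had 149.5 and 142 FPKM, Itgb1 103 and 134 FPKM, Vcam1 101 and 128 FPKM, and Calcr 82.6 and 110 FPKM. The libraries of Itgb1 and Vcam1 overlapped, as did those of Vcam1 and Calcr, so these neighbours in the order were not separated. Itga7 had 59.3 and 52.0 FPKM, below both libraries of its partner subunit Itgb1 by the deposited FPKM. Ncam1 followed with 33.3 and 30.4 FPKM and Cd34 with 21.6 and 27.6 FPKM. Cxcr4, the receptor for the chemokine Cxcl12, was the least even gene, with 4.69 FPKM in one input library and 11.3 in the other, from 39 and 85 reads.

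The gene length behind the FPKM is the sum of all annotated exons, which for some genes is much longer than any mRNA. It was 8870 bases for Vcam1, whose longest protein-coding transcript has 3469 bases, and 7290 bases against 2554 for Cd34. With the length of that transcript in place of the exon sum, an alternative chosen after seeing the data, Vcam1 moved from place 4 to place 2 with 257 and 327 FPKM, and 3 of the 10 genes kept their place. By that length Itga7 (119 and 105 FPKM) and its partner Itgb1 (110 and 143 FPKM) overlapped and were not separated. The order of the levels within 1 library thus depends on the gene model, whereas the tests on counts between libraries do not use gene length.

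**Figure D2:**
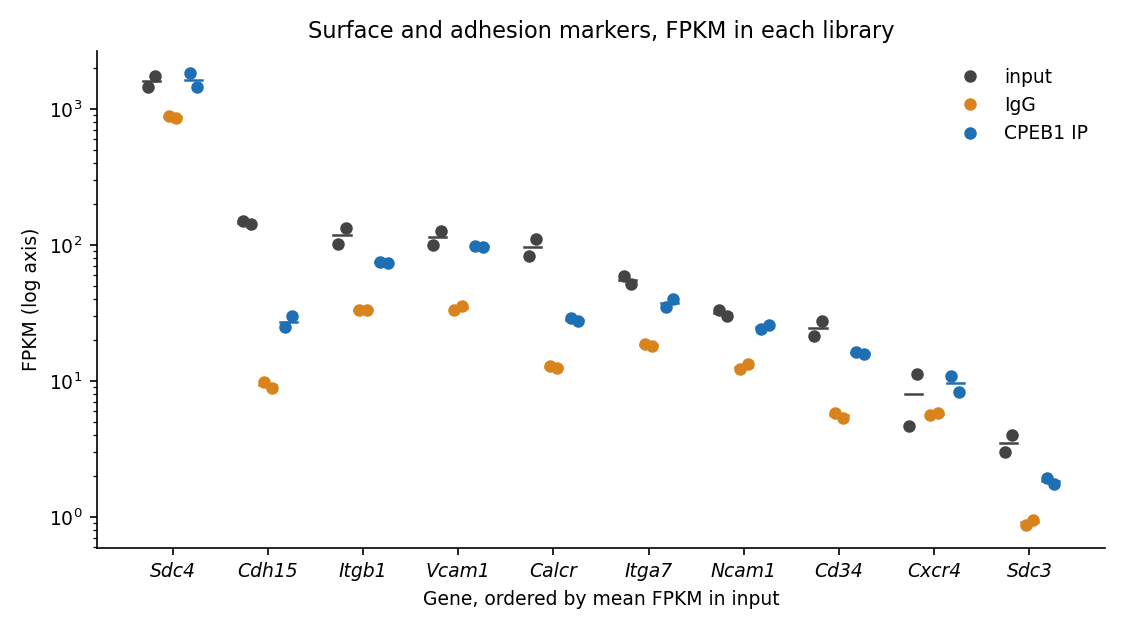
Deposited FPKM of each gene in the 2 input, 2 IgG and 2 CPEB1 IP libraries on a log axis, with genes ordered by their mean in input. Points are libraries and short lines are means of 2. Cdh15 falls from 142 or more in input to 29.9 or less in the immunoprecipitations. In every gene but Cxcr4 both IgG libraries lie below both input libraries. This FPKM scale itself puts the median of all genes lower in IgG than in input, at a log2 fold change of -0.93. With TMM, the library scaling of the tests below, that order held for 8 surface markers and for 34.5% of all genes tested. Sdc4 then overlapped between IgG and input, with a log2 fold change of 0.0033.

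CPEB1 IP was compared with IgG to ask which of the surface marker transcripts were recovered more with the CPEB1 antibody than with the control antibody. Vcam1, Cd34, Cdh15, Itgb1 and Calcr were higher in CPEB1 IP, none was lower, and the other 5 did not pass the test (edgeR's quasi-likelihood test, Benjamini-Hochberg adjusted p under 0.05 over 12124 genes). Among all genes tested, 14.7% were higher in CPEB1 IP and 18.7% were lower. The median log2 fold change was 0.28 over the 10 genes and -0.011 over all genes tested. In 8 of the 10 genes both CPEB1 IP libraries lay above both IgG libraries, as they did in 31.5% of all genes tested. DESeq2 called none of the 10 lower either, and none had a lower value at an unadjusted p under 0.05. The differences were small, between 1.28-fold and 1.68-fold for the 5 genes that passed. Values below are CPM, counts scaled to library size with TMM factors, computed within the pair of groups compared. All 10 genes passed the filter on low counts in each comparison.

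Vcam1, an immunoglobulin superfamily molecule that binds integrin alpha4 beta1, had 1338 and 1248 CPM in CPEB1 IP and 761 and 828 CPM in IgG. All values in CPEB1 IP lay above those in IgG, by 1.63-fold on average (log2 fold change 0.70, SE 0.093, edgeR adjusted p = 1.59e-05). Ncam1, the other immunoglobulin superfamily member here, had 318 and 327 CPM in CPEB1 IP and 272 and 304 CPM in IgG. The groups did not overlap, but the difference was small and did not pass (log2 fold change 0.16, 95% interval -0.044 to 0.37, edgeR adjusted p = 0.224).

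The sialomucin Cd34 had 181 and 168 CPM in CPEB1 IP and 109 and 104 CPM in IgG, a log2 fold change of 0.71 (SE 0.12, edgeR adjusted p = 2.04e-04). Cdh15 had 123 and 142 CPM in CPEB1 IP and 82.9 and 76.5 CPM in IgG, a log2 fold change of 0.75 (SE 0.14, edgeR adjusted p = 3.74e-04). For both genes the libraries of the groups were well apart. The order of Cdh15, Cd34 and Vcam1 was within their SE, and without CPEB1 IP replicate 2 Cdh15 was at 0.65, below Cd34 at 0.79 and Vcam1 at 0.78. Vcam1, Cd34 and Cdh15 lay above 93.5%, 93.6% and 94.6% of all genes tested by log2 fold change, and Cdh15 ranked 655 from the top. Endothelial cells and other stromal cells, which can also express Vcam1 and Cd34, were to be removed by the CD31- and Sca1- gates. The endothelial markers summed to 25.2 to 27.7 FPKM in CPEB1 IP and 11.2 to 13.6 FPKM in IgG, on the deposited FPKM scale, on which the median of all genes was itself higher in CPEB1 IP by 0.84 (log2). With TMM, as used for Vcam1 and Cd34, the endothelial genes Cdh5 (log2 fold change 0.16, edgeR adjusted p = 0.719) and Icam2 (-0.21, edgeR adjusted p = 0.803) did not pass. Icam2 is not among the 7 markers summed, and these 2 genes do not stand for the others. By FPKM, Pecam1 had 4.51 and 4.65 in CPEB1 IP and 1.24 and 2.77 in IgG. Egfl7 had 3.58 and 4.52 in CPEB1 IP and 2.06 and 0.803 in IgG. Kdr was closer, with 0.664 and 0.826 FPKM in CPEB1 IP and 0.614 and 0.51 FPKM in IgG. The part of such cells in the differences was not tested. In bulk libraries, fewer cells of a type and less of its RNA for each cell cannot be told apart.

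Of the integrin subunits, Itgb1 had 467 and 444 CPM in CPEB1 IP and 351 and 361 CPM in IgG, which passed (log2 fold change 0.35, SE 0.094, edgeR adjusted p = 0.00649). Its partner Itga7 had 429 and 473 CPM in CPEB1 IP and 392 and 387 CPM in IgG. The Itga7 libraries did not overlap either, but the gene did not pass (log2 fold change 0.21, 95% interval 0.015 to 0.41, edgeR adjusted p = 0.0925). The intervals of the 2 subunits overlapped, and whether they differed from each other was not tested. DESeq2 called both Itga7 and Ncam1 as higher (adjusted p = 4.50e-05 and 9.30e-04), and edgeR called Itga7 without CPEB1 IP replicate 1 (log2 fold change 0.32, adjusted p = 0.0295).

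Calcr, the calcitonin receptor that SCs use to stay quiescent, had 173 and 158 CPM in CPEB1 IP and 129 and 128 CPM in IgG (log2 fold change 0.36, SE 0.12, edgeR adjusted p = 0.0234). Calcr no longer passed in edgeR when CPEB1 IP replicate 1 (adjusted p = 0.143), CPEB1 IP replicate 2 (adjusted p = 0.0610) or IgG replicate 2 (adjusted p = 0.0519) was left out, or when total counts replaced TMM (adjusted p = 0.0674). Cxcr4, like Calcr a G protein-coupled receptor, had 29.8 and 22.2 CPM in CPEB1 IP and 26.1 and 28.0 CPM in IgG. Its groups overlapped, and its interval was wide (log2 fold change -0.093, 95% interval -0.65 to 0.46). It rested on only 33 to 108 reads a library, and its sign changed with the library scaling.

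Sdc4 had 7087 and 5384 CPM in CPEB1 IP and 5768 and 5782 CPM in IgG. The IgG libraries lay between the CPEB1 IP libraries. The log2 fold change was 0.11 (95% interval -0.14 to 0.36, edgeR adjusted p = 0.515), it was 0.32 with an adjusted p of 8.28e-09 without CPEB1 IP replicate 2, and it turned to -0.063 without CPEB1 IP replicate 1. Sdc3 had 17.8 and 15.4 CPM in CPEB1 IP and 13.4 and 15.2 CPM in IgG, from 17 to 75 reads a library (log2 fold change 0.20, 95% interval -0.51 to 0.90). Its 0.874 and 0.960 FPKM in IgG were close to 0.798 and 0.788 FPKM, the level that 95% of the genes without input counts stayed under in the same libraries. The interval of Sdc3 was wide enough to hold a moderate difference in either direction. Of its exon bases, 7.73% are shared with antisense genes, so that reads there cannot be assigned without strand.

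**Figure D3:**
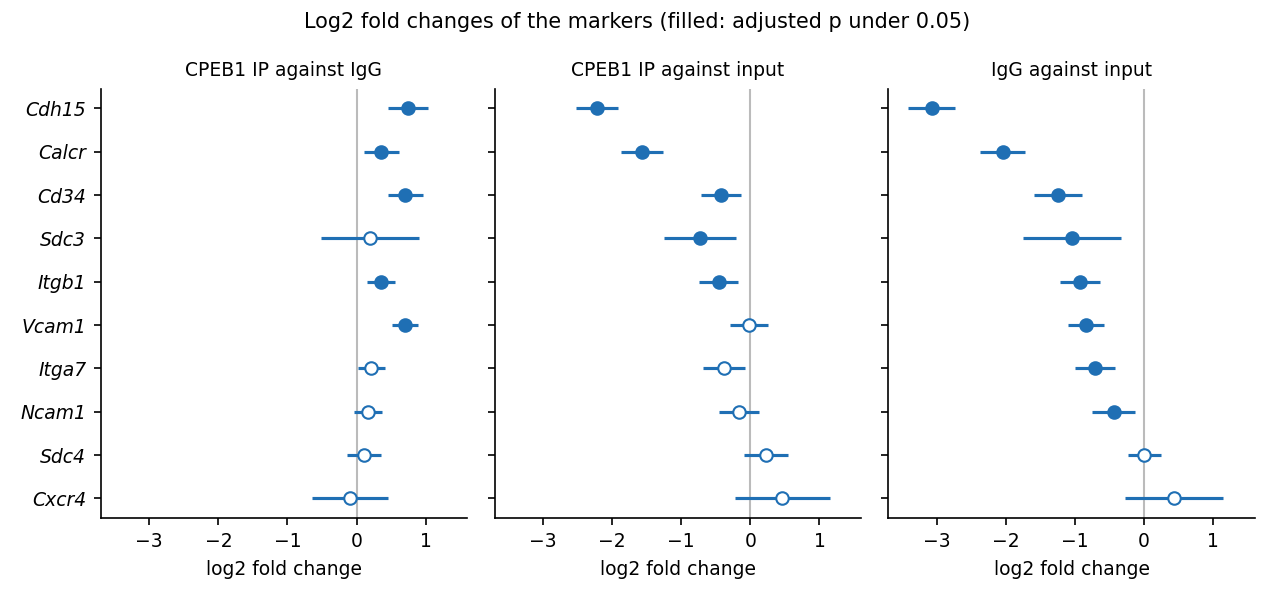
Log2 fold changes of the 10 genes in the 3 comparisons on a common x axis, with points for estimates, lines for 95% intervals and filled points for an edgeR adjusted p under 0.05. In CPEB1 IP against IgG 5 points are filled, all right of 0, and in IgG against input 8 are filled, all left of 0, with Cdh15 at -3.08 and Calcr at -2.05.

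The study counted a gene as CPEB1-associated when its FPKM in CPEB1 IP was over 2 times that in IgG in each experiment, and DESeq2 passed. Here 1 was added to each FPKM and edgeR took the place of DESeq2. By these criteria Vcam1, Cd34, Cdh15, Itgb1 and Calcr were CPEB1-associated, 5 of the 10 genes, beside 12.1% of all genes tested (1464 genes). With DESeq2 they were the same 5, among 1554 genes. Libraries of the same replicate number were taken as an experiment, which no label states. The ratio in experiments 1 and 2 was 2.91 and 2.68 for Vcam1, and 2.53 and 2.62 for Cd34. For Cdh15 it was 2.38 and 3.11, for Itgb1 2.21 and 2.19, and for Calcr 2.17 and 2.14. Sdc4 passed the ratio in experiment 1 only (2.07 and 1.68) and Itga7 in experiment 2 only (1.80 and 2.14). Ncam1 (1.9 and 1.88), Cxcr4 (1.79 and 1.37) and Sdc3 (1.58 and 1.41) were under 2 in both.

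These ratios rest on the library totals behind the deposited FPKM, of which a smaller share fell on genes in IgG than in CPEB1 IP. With those totals as library sizes the median log2 fold change of all genes was 0.84, and 62.7% of the 11503 genes then tested were called higher, with all 10 surface markers among them. The higher calls were 93.3% of all calls with those totals, 72.7% by DESeq2 and 44.0% with TMM. Relative to that median, Cdh15 stood at 0.71, Cd34 and Vcam1 at 0.67, Calcr at 0.33, Itgb1 at 0.32, and Cxcr4 at -0.13. The 10 genes thus stood in the same order as with TMM, while the number over the criterion differed. With FPKM computed from TMM library sizes, no surface marker had a ratio over 2 in both experiments, and 56 genes in all were CPEB1-associated.

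**Figure D4:**
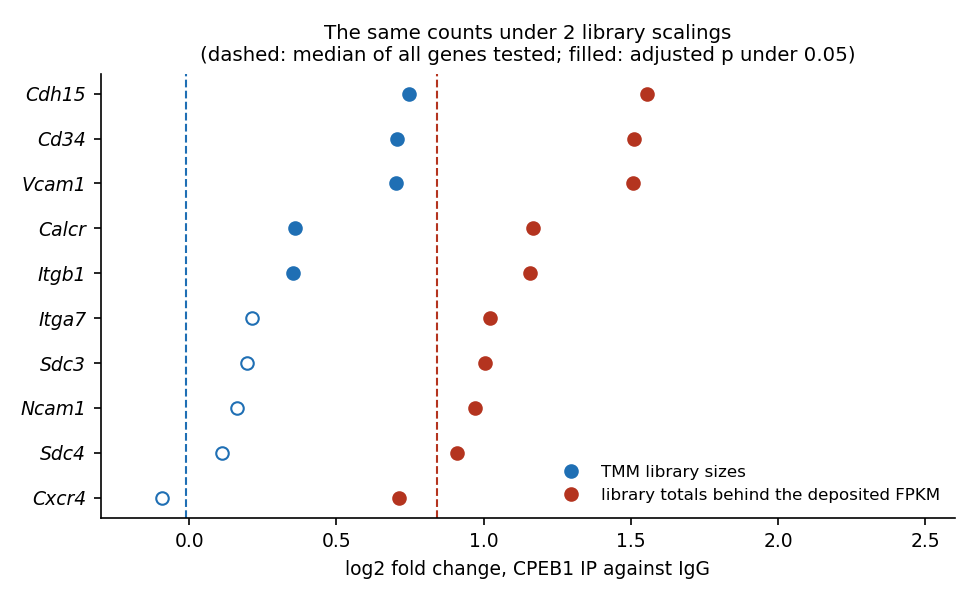
Log2 fold change in CPEB1 IP against IgG for each gene, from the same counts with TMM library sizes (blue) and with the library totals behind the deposited FPKM (red). Dashed lines are the medians of all genes tested (-0.011 and 0.84) and filled points have an edgeR adjusted p under 0.05. All 10 red points are filled and 5 blue ones, and the red points lie to the right of the blue by about the distance between the dashed lines.

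The immunoprecipitations were also set against input, to see how the recovered RNA differed from the RNA the cells held. CPEB1 IP and IgG share the same input libraries in these comparisons, so their values are given side by side and are not independent of each other. In CPEB1 IP, 5 of the 10 genes were lower than in input and none was higher, beside 15.8% lower and 17.0% higher among all genes tested (edgeR, 12171 genes).  In IgG, 8 of the 10 were lower than in input and none higher, beside 19.4% and 21.4% of all genes tested (edgeR, 12980 genes). In both comparisons DESeq2 also called none of the 10 higher, and none was higher at an unadjusted p under 0.05. The median log2 fold change of the 10 genes was -0.40 in CPEB1 IP and -0.89 in IgG, against medians of all genes of -0.0038 and 0.031. With the library totals behind the deposited FPKM those medians of all genes were -0.20 and -0.93, and the higher calls went from 51.9% to 30.7% of all calls in CPEB1 IP and from 52.4% to 7.13% in IgG.

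Cdh15 and Calcr stood apart. Cdh15 had 669 and 573 CPM in input and 123 and 143 CPM in CPEB1 IP, 4.65-fold lower (log2 fold change -2.22, SE 0.14, edgeR adjusted p = 7.40e-07). In IgG it was 8.44-fold lower than in input, with 81.4 and 75.1 CPM (log2 fold change -3.08, SE 0.17, edgeR adjusted p = 4.92e-18), and only 9 of the 12980 genes tested had a lower value. Calcr had 444 and 535 CPM in input and 172 and 159 CPM in CPEB1 IP, 2.96-fold lower (log2 fold change -1.57, SE 0.14, edgeR adjusted p = 8.40e-06). In IgG it was 4.13-fold lower, with 126 CPM in both libraries (log2 fold change -2.05, SE 0.16, edgeR adjusted p = 3.99e-13). Cdh15 thus passed as higher in CPEB1 IP than in IgG while it was far below input in both. Of the other SC markers, Pax7 stood below input in both by FPKM, at 10.1 and 10.8 FPKM after CPEB1 IP, 6.41 and 5.45 FPKM after IgG, and 39.8 and 46.0 FPKM in input. Myod1 had 893 and 831 FPKM after CPEB1 IP, 420 and 405 FPKM after IgG, and 404 and 389 FPKM in input. On this FPKM scale the median log2 fold change of all genes against input was -0.20 in CPEB1 IP and -0.93 in IgG. The FPKM of Pax7 and Myod1 therefore cannot be set directly beside the CPM of Cdh15 and Calcr.

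Vcam1 had 1226 and 1405 CPM in input and 1334 and 1255 CPM in CPEB1 IP, so that these groups overlapped (log2 fold change -0.023, 95% interval -0.30 to 0.25). In IgG it was lower than in input (log2 fold change -0.84, SE 0.13, edgeR adjusted p = 2.29e-06). Ncam1 showed no difference between CPEB1 IP and input that passed (log2 fold change -0.16, 95% interval -0.45 to 0.13), and in IgG it was lower (-0.44, edgeR adjusted p = 0.0173). Cd34 was lower in CPEB1 IP by 0.42 and in IgG by 1.25 on the log2 scale (edgeR adjusted p = 0.0289 and 2.18e-07).

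Itgb1 was lower than input in CPEB1 IP (log2 fold change -0.46, edgeR adjusted p = 0.0165) and in IgG (-0.93, edgeR adjusted p = 1.64e-06). Itga7 was lower in IgG (-0.72, edgeR adjusted p = 1.16e-04), while in CPEB1 IP it missed the threshold (-0.39, edgeR adjusted p = 0.0509). Sdc3 was lower in CPEB1 IP (-0.73, edgeR adjusted p = 0.0326) and in IgG (-1.05, edgeR adjusted p = 0.0147), where its level was close to that of genes without input counts. DESeq2 gave neither Sdc3 call (adjusted p = 0.143 and 0.128).

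Sdc4 and Cxcr4 were the genes that were not lower in either immunoprecipitation. Sdc4 had 5094 and 5541 CPM in input against 7067 and 5412 in CPEB1 IP (log2 fold change 0.23, 95% interval -0.089 to 0.55), and in IgG its log2 fold change was 0.0033 (95% interval -0.23 to 0.24). Cxcr4 had 11.7 and 25.4 CPM in input against 29.7 and 22.3 in CPEB1 IP, and the spread between its input libraries left intervals of -0.23 to 1.16 in CPEB1 IP and -0.28 to 1.14 in IgG. Leaving out either CPEB1 IP library reduced the number of genes lower than in input from 5 to 2, Cdh15 and Calcr, with edgeR adjusted p of 0.0937 to 0.296 for Itgb1, Cd34 and Sdc3. Without input replicate 2, Cxcr4 (log2 fold change 1.12, edgeR adjusted p = 0.00118) and Sdc4 (0.30, edgeR adjusted p = 0.0142) were called higher in CPEB1 IP, Itga7 and Ncam1 were called lower, and Sdc3 did not pass. In IgG against input, Sdc3 did not pass without either IgG library or without input replicate 2, Ncam1 did not pass without either IgG library or without input replicate 1, and Cxcr4 was called higher without input replicate 2 (1.09, edgeR adjusted p = 0.0354).

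The log2 fold changes were then read against genes of like GC content and mRNA length, each as a decile of the genes tested. In CPEB1 IP against IgG, Vcam1 lay above 94.6% of the 1087 genes in its decile of GC content and above 93.0% in its decile of length. Cd34 lay above 94.0% and 92.6%, and Cdh15, with the highest GC content of the 10 at 59.9%, above 92.8% and 93.7%. Sdc4 lay near the middle of its deciles, above 55.8% and 49.6%. Against input, Cdh15 in IgG had 1 of the 1148 genes in its decile of GC content below it, and Calcr had 8. The position of these genes was therefore similar among all genes and among genes of like GC content or length.

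The number of CPEs did not order the genes in CPEB1 IP against IgG. Cdh15, at a log2 fold change of 0.75, held no CPE, and Sdc4 and Ncam1, with 6 CPEs each, did not pass. The 7 genes with a CPE had a median log2 fold change of 0.35 and the 3 without one 0.21. Over all genes tested with an annotated 3′ UTR, the medians were -0.0079 with a CPE and 0.145 without. No match in these annotated 3′ UTRs says nothing of binding elsewhere in the transcript or through other proteins.

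The genes closest to Vcam1 over the 6 libraries, by Euclidean distance of log2 CPM centred on each gene's mean among 9023 other genes of at least 10 CPM, were Bgn (0.15), Prkar1a (0.15) and Mrpl27 (0.16). Bgn had 168 and 177 CPM in CPEB1 IP, 92.7 and 102 CPM in IgG, and 172 and 191 CPM in input. The closest other surface marker to Vcam1 was Itgb1, at 0.46. Itga7 and Ncam1 were each other's closest surface marker (0.32), and so were Itgb1 and Sdc3 (0.27). Cdh15 and Calcr were the farthest from any other, at 1.12 and 1.11.

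Related adhesion genes were counted in 8 lists, of which each is given as genes that passed the same test and as a median log2 fold change. Among all genes tested, 14.7% were higher and 18.7% lower in CPEB1 IP than in IgG. With the library totals of the deposited FPKM these shares were 62.7% and 4.53%. In CPEB1 IP against IgG, 6 of 20 tested genes of the integrin adhesion complex were higher and 3 lower, with a median of 0.20. Tln1 (talin), which links integrin tails to actin, had the largest difference, with 687 and 713 CPM in CPEB1 IP and 208 and 194 CPM in IgG (log2 fold change 1.80, SE 0.10, edgeR adjusted p = 8.86e-11). Lims2 was higher (1.26) and Tns1 lower (-0.60), the latter at 0.21 with the library totals of the deposited FPKM. In IgG, Lims2 had only 0.503 and 1.13 FPKM. Of 13 integrin subunits other than Itga7 and Itgb1, Itga5 was the 1 higher (log2 fold change 0.32, edgeR adjusted p = 0.0431) and 4 were lower, and none of these calls was made without CPEB1 IP replicate 1 or without CPEB1 IP replicate 2. Those 4 all had a mean under 1 FPKM, none was called lower with the library totals of the deposited FPKM, and the list's median was -0.59 with TMM and 0.54 with those totals, which is 0.30 under the median of all genes.

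Of the other heparan sulfate carriers, 4 of 8 tested were higher in CPEB1 IP than in IgG and none was lower, with a median of 0.74. The 4 were Sdc1 (log2 fold change 0.76), Sdc2 (0.71), Gpc4 (0.97) and Hspg2 (0.96), the last of which encodes perlecan of the basal lamina. Sdc1 and Sdc2 thus passed where Sdc3 and Sdc4 did not, although a difference between the syndecans was not tested. Among 15 enzymes that build or trim heparan sulfate chains, 3 were higher (Hs3st1 1.45, Ext2 0.73 and Glce 0.69) and 1, Xylt1, was lower. The shares over all genes tested were 14.7% higher and 18.7% lower. Hs3st1 had only 0.966 and 0.258 FPKM in IgG, and its edgeR adjusted p was 0.0467. Xylt1 had a mean under 1 FPKM, and 12 of these enzymes were higher and 0 lower with the library totals of the deposited FPKM.

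Of 12 other cadherins and catenins, 5 were higher and 3 lower in CPEB1 IP than in IgG. The 3 lower, Cdh2, Cdh11 and Ctnnd2, had means under 1 FPKM, and with the library totals of the deposited FPKM 7 of 11 were higher and 1 lower. Of those over 1 FPKM, the catenins Ctnnb1 (log2 fold change 1.27, edgeR adjusted p = 1.71e-08) and Jup (1.04), which bind the cytoplasmic tails of cadherins, and Cdh13 (0.67) had the largest differences. Ctnnb1 was also higher than input in CPEB1 IP (1.07, edgeR adjusted p = 5.99e-05), unlike Cdh15. Of 21 other adhesion molecules of the immunoglobulin superfamily, 5 were higher and 3 lower. Among those over 1 FPKM, Nectin2 (1.19), Bsg (0.57) and Nectin1 (0.57) had the largest differences. The 3 lower, Ncam2 (-1.89), Nrcam (-1.79) and Cadm3 (-1.55), had means under 1 FPKM, and with the library totals of the deposited FPKM 12 of 20 were higher and 1 lower. Of 19 ligands and partners of the surface markers, 3 were higher and 1 lower, beside 14.7% higher and 18.7% lower among all genes tested. The higher ones were Selp (0.95), the syndecan adaptor Sdcbp (0.60) and Ackr3 (0.34), which is a second receptor for Cxcl12.

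Of 16 other surface proteins used to mark SCs, 6 were higher and 1 lower in CPEB1 IP than in IgG, and 4 higher and 8 lower in CPEB1 IP than in input, where the 12 calls became 6 without CPEB1 IP replicate 1. Dag1, the dystroglycan that anchors SCs to laminin, had 996 and 968 CPM in CPEB1 IP and 525 and 481 CPM in IgG (log2 fold change 0.96, edgeR adjusted p = 2.96e-07). Against input, Dag1 was lower by 1.41 in CPEB1 IP and by 2.49 in IgG on the log2 scale (edgeR adjusted p = 8.98e-06 and 4.11e-18), the same directions as Cdh15 and Calcr. The tetraspanins Cd81 (0.81) and Cd82 (0.76) were also higher in CPEB1 IP than in IgG. Fgfr4 and Megf10 were lower than input in CPEB1 IP (-1.72 and -1.37) and also in IgG (-2.16 and -1.65). Among all genes tested, 17.0% were higher and 15.8% lower in CPEB1 IP than in input.

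Without CPEB1 IP replicate 1 the calls in either direction fell from 4 to 2 among the heparan sulfate enzymes, from 8 to 5 among cadherins and catenins, and from 8 to 4 in the immunoglobulin superfamily. Without CPEB1 IP replicate 2 they were 1, 4 and 1 in these lists and 5 in place of 9 in the integrin adhesion complex, and without IgG replicate 2 they were 2 among the enzymes. Among the integrin subunits, 3 genes were called without IgG replicate 1 and 3 without IgG replicate 2.

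In CPEB1 IP against input, each of the 8 lists held genes called in both directions. In IgG against input, 5 of 14 integrin subunits were higher and 0 lower, and 0 of 8 heparan sulfate carriers were higher and 4 lower. Among all genes tested there, 21.4% were higher and 19.4% lower. Those 5 subunits all had a mean under 1 FPKM. With the library totals of the deposited FPKM, 0 of 12 integrin subunits were higher there and 3 lower, beside 4.59% and 59.7% of all genes tested. In CPEB1 IP, Spp1 (osteopontin), an integrin ligand, was higher than in input by 3.96 on the log2 scale, and Ramp2, a partner of calcitonin family receptors, was lower (-1.62). Spp1 had 2.09 to 8.07 CPM in input and 70.6 and 87.6 CPM in CPEB1 IP. Spp1 was also higher in IgG, by 3.74 on the log2 scale, and Ramp2 was also lower in IgG (-1.71). The endothelial cadherin Cdh5 was higher than input in CPEB1 IP (2.37) and in IgG (2.08), and Icam2 was higher in CPEB1 IP (1.84), as the endothelial marker sum was. Ilk was lower in both (-1.50 and -1.83), and Tln1 was higher than input in CPEB1 IP (1.32).

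**Figure D5:**
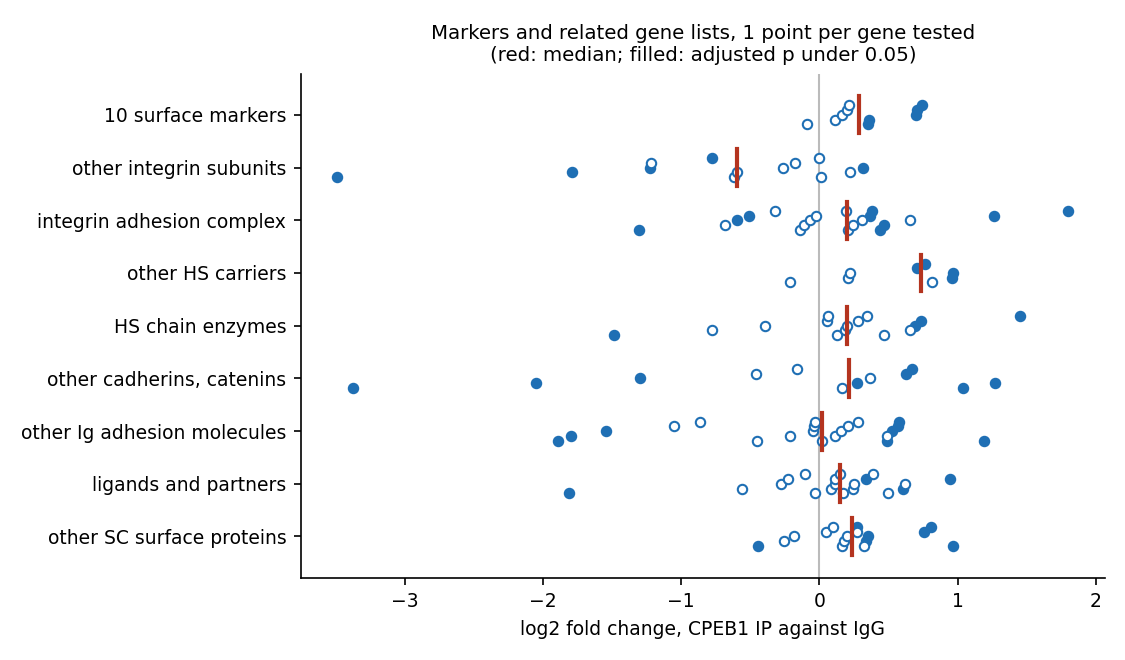
Log2 fold change in CPEB1 IP against IgG for the 10 surface markers and the 8 related lists, with 1 point for each gene tested, filled where the edgeR adjusted p is under 0.05, and red lines at list medians. The surface markers have a median of 0.28 and the narrowest range, from -0.093 to 0.75, while the heparan sulfate carriers have the highest median (0.74) and the other integrin subunits the lowest (-0.59).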

How the data were processed

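RIP-seq libraries were made by the SMART-Seq2 method from sorted SCs, 2 for each of CPEB1 IP, IgG and input. The authors mapped reads to mm10 with HISAT2 and counted them on genes with featureCounts, and the raw counts were deposited without normalization. The authors computed the deposited FPKM from count, summed exon length and a library total above the counts on genes. The strand setting and the treatment of reads mapping to several places are not given in the sources used here.

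Counts were analysed with edgeR 4.0.16 in R 4.3.3 (filterByExpr, TMM, quasi-likelihood test on 2 groups at a time, Benjamini-Hochberg adjustment over all genes tested). The SE is the log2 fold change divided by the square root of F, and intervals are at 95%. The remaining steps used Python 3.11.15. The procedure was tested on simulated data. The ratio of FPKM plus 1 was taken between libraries of the same replicate number, called an experiment here, although no label pairs them. With 2 libraries for each group an exact test cannot reach 0.05, and precision rests on spread shared across genes. Depth was 1284716 to 4941653 counts on genes.

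The 10 genes, the 8 lists and the rules were chosen with earlier results of these data known. From each list, at most 3 genes of largest log2 fold change among those with adjusted p under 0.05 and mean FPKM over 1 were named in a comparison, besides Pecam1, Ptprc and Ly6a. Sdc2, Myod1, Pax7, Des, Egfl7, Kdr, Dpt, Col3a1, Pdgfra, Dcn and the genes under 1 FPKM were named outside this rule, after values were seen. So were Cdh5 and Icam2 in CPEB1 IP against IgG, and Megf10 in IgG against input. The alternatives were DESeq2 1.42.0, RLE factors, total counts, the library totals of the FPKM, no filter, all 6 libraries in 1 fit, a replicate block, pseudocounts of 0.1 and 5, crossed pairs, canonical CPEs only, the longest 3′ UTR only, and leaving out each library. Added after seeing the data were the transcript length for levels and the block for the CPEB1-associated criteria.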

Additional observations from a re-analysis of the deposited data

How the results depend on the processing

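Vcam1, Cd34, Cdh15 and Itgb1 stayed higher in CPEB1 IP than in IgG under all 11 alternatives. The number of the 10 genes higher there was 5, and it was 10 with the library totals of the FPKM, 8 without the filter, 7 by DESeq2, 4 with total counts and 4 to 5 with a library left out. Genes higher numbered 7212 with the FPKM totals, 3513 without the filter and 1054 to 1783 with a library left out, and genes lower 521 with the FPKM totals, 984 by DESeq2 and 677 to 1750 with a library left out. In CPEB1 IP against input, leaving out a library gave 2 to 6 of the 10 genes lower, 0 to 2 higher, and 957 to 2646 genes higher and 1064 to 2347 lower in all. DESeq2 gave 1230 higher and 1190 lower, and the FPKM totals 1222 higher. In IgG against input, leaving out a library gave 0 to 1 of the 10 genes higher and 1354 to 2170 genes higher in all. DESeq2 gave 1188 higher and 1602 lower there, and the FPKM totals 551 and 7172. CPEB1-associated genes of the 10 were 5, but 3 with a pseudocount of 5 and 0 with TMM library sizes, and 3 genes kept their place in the input order with transcript lengths. The FPKM totals rescale each library as a whole, and the cause of the other differences was not tested. Signs that turned belonged to Cxcr4, Sdc4 and Vcam1. For Cxcr4 in CPEB1 IP against IgG the log2 fold change was 0.21 by DESeq2, 0.71 with the FPKM totals, 0.31 without the filter, and -0.25 to 0.16 with a library left out. For Cxcr4 in IgG against input it was -0.47 with the FPKM totals and -0.018 to 1.09 with a library left out, and against input in CPEB1 IP -0.040 to 1.12. For Sdc4 in IgG against input it was -0.14 by DESeq2, -0.88 with the FPKM totals, -0.27 without the filter, and -0.052 to 0.064 with a library left out, and in CPEB1 IP against IgG -0.063 to 0.32. For Vcam1 in CPEB1 IP against input it was -0.16 to 0.083. Deviations from the group mean were not correlated between libraries of the same replicate number (correlations -0.011, -0.021 and 0.032 over 14276 genes). With 2 libraries for each group this cannot show whether the libraries were paired. With a replicate block 5 of the 10 genes were higher in CPEB1 IP than IgG, 4 lower than input and 8 lower in IgG than input, the one call lost being Cd34 against input (adjusted p = 0.0617). When a library is left out, the lone library of its group is assumed to vary like the other group. Depth limits Cxcr4 and Sdc3, with 17 to 108 reads a library.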
